A study of Mus musculus with 4 samples.

Results

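The glucocorticoid receptor, its chaperone Hsp90, the co-chaperones that shape the receptor complex and the receptor-induced leucine zipper gene Tsc22d3 were followed in mouse double-positive thymocytes, the immature T cells that carry both CD4 and CD8. All probe sets whose single gene symbol in the platform annotation was Nr3c1, Fkbp5, Fkbp4, Hsp90aa1, Hsp90ab1, Stip1, Ppid, Ahsa1 or Tsc22d3 were taken. This gave 9 probe sets for 7 of the 9 genes, among 10833 single-gene probe sets for 8251 genes. Hsp90ab1 and Ahsa1 had 0 such probe sets and were not measured here. RNA was measured on 4 Affymetrix arrays, 2 from cells cultured for 3 h with dexamethasone, a synthetic glucocorticoid, at a final concentration of 1e-07 M, and 2 from cells cultured for 3 h in medium with PBS. All cells were sorted with microbeads from thymi of female C3H/HeN mice aged 4 weeks, and the labels name no mutation or transgene for either group. The design describes the 2 arrays of a group as technical replicate extracts, so that the p-values measure the spread between extracts. The labels give neither the number of mice nor whether a group's extracts had separate cultures as their source.

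The glucocorticoid receptor, encoded by Nr3c1, is a transcription factor that is held in the cytoplasm in a complex with Hsp90 and its co-chaperones until hormone binds. Stip1 (also called Hop) passes the receptor from Hsp70 to Hsp90, and Ahsa1 stimulates the ATPase of Hsp90. The mature complex holds an immunophilin with a tetratricopeptide domain, either FKBP51 (Fkbp5), FKBP52 (Fkbp4) or cyclophilin 40 (Ppid). FKBP51 lowers the affinity of the receptor for hormone and FKBP52 favours its transport to the nucleus, and Fkbp5 is itself a direct target of the hormone-bound receptor in many tissues. Double-positive thymocytes are known for their sensitivity to death induced by glucocorticoids.

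Of the 6 members that could be tested, 2 rose with dexamethasone, 0 fell and 4 did not pass, beside 3.91% of all 5582 genes tested that changed, 1.88% that rose and 2.02% that fell. Fkbp5 rose 3.62-fold and Nr3c1 rose 1.90-fold, while Hsp90aa1, Fkbp4, Stip1 and Ppid did not pass. The values are MAS5 signals, 1 number per probe set and array on a linear scale. A gene is said to have risen or fallen where limma gave an adjusted p under 0.05 on log2(signal + 1), with its brightest probe set standing for the gene. Fold changes and log2 differences are on that scale and are dexamethasone over or minus medium. The median log2 difference was 0.22 over the 6 members and 0.00 over all genes tested. Groups did not overlap for 4 of the 6 members, beside 50.5% of all genes tested, so that this count is near the background.

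**Figure D1:**
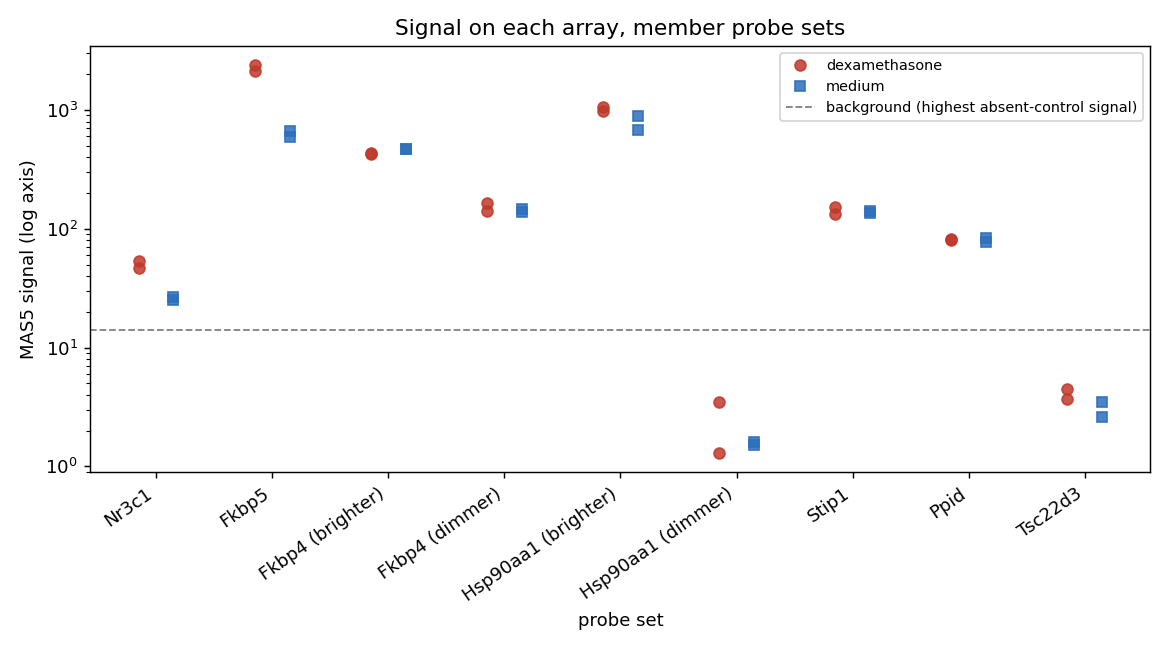
MAS5 signal (log axis) of each of the 9 member probe sets on the 2 dexamethasone arrays (circles) and the 2 medium arrays (squares), with the background signal of 14 as a dashed line. Fkbp5 and Nr3c1 lie higher on both dexamethasone arrays, Fkbp4, Stip1 and Ppid lie close together, and Tsc22d3 and the dimmer Hsp90aa1 probe set lie under the line on all 4 arrays. Heights of different probe sets are not comparable.

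The arrays shared a common scale, with medians of 21.9 to 22.8 in the dexamethasone group and 21.1 to 21.7 in the medium group. The 19 control probe sets for bacterial and yeast transcripts that were judged absent, since all were low, had signals of up to 14, which is used here as the background. Of the 10 markers listed for double-positive thymocytes, 9 had a probe set, and 0 of these 9 lay at background on all arrays. Their summed signal was 13078 and 12110 with dexamethasone and 12727 and 12300 in medium. Cd4 had signals of 443 and 448 with dexamethasone and 423 and 508 in medium, so that the marker of the sort was measured in both groups. The summed signals of markers of other cells ranged over 139 to 163 with dexamethasone and 133 to 136 in medium for B cells, and over 82.7 to 101 with dexamethasone and 98.4 to 109 in medium for macrophages and dendritic cells. They ranged over 126 to 132 with dexamethasone and 115 to 124 in medium for erythroid cells, and over 218 to 255 with dexamethasone and 187 to 216 in medium for thymic epithelium and stroma. The epithelial markers Epcam, Krt5, Krt8 and Krt18 and the macrophage markers Lyz2, Adgre1 and Itgam were at background on all arrays. The other measured markers of the same lists were above it on some or all arrays. Csf1r lay on both sides of it, with 12.1 and 15.4 with dexamethasone and 7.2 and 16 in medium. Among stromal genes Col1a2 had signals of 176 and 151 with dexamethasone and 169 and 138 in medium, and Pdgfra had 29.6 and 18.2 with dexamethasone and 22.4 and 20.7 in medium. Col1a1, a collagen gene of fibroblasts, had 33.5 and 38.2 with dexamethasone and 16.5 and 18.4 in medium, without overlap. Its difference of 0.997 ± 0.198 (SE) on the log2 scale narrowly missed the threshold (limma adjusted p = 0.0502). Among macrophage and dendritic cell genes Cd14 had 43.9 and 24.6 with dexamethasone and 40.8 and 45.1 in medium, Cd68 had 21.5 and 20.5 with dexamethasone and 17.6 and 19.3 in medium, and Itgax had 13.6 and 15.2 with dexamethasone and 17.9 and 17.7 in medium. Of the tested markers of these 4 lists, 0 passed, and Col1a1 was the nearest to doing so. Markers of mature single-positive thymocytes summed to 1252 and 1121 with dexamethasone and 1049 and 1106 in medium. Most of this was H2-K1, with 995 and 883 with dexamethasone and 894 and 912 in medium. Of the 4 tested markers of that list 1 rose, Il7r, with a log2 difference of 1.40, and 0 fell. Among the double-positive markers Cd8b1 fell, with a log2 difference of -0.33 close to the threshold (limma adjusted p = 0.0466), and 0 rose. Whether the Cd8b1 call holds with other processing was not examined. The part of other cells in the results below was not tested, and in such bulk samples fewer cells of a type and less RNA per cell cannot be told apart. The probe sets of the hybridization controls, 9 for bacterial and phage transcripts, were 1.37-fold higher on the dexamethasone arrays. The actin control, read at its 3′ end over its 5′ end, gave 1.40 and 1.24 with dexamethasone and 1.15 and 1.06 in medium. The part of either in the results was not tested. Scaling the arrays to the hybridization controls moves the median log2 difference of all genes to -0.45, which lowers every member by about that amount. It moves all genes of an array by the same factor, and the p-values treat this shared error as separate for each gene. Calls and counts with that scaling are therefore given as description only.

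Nr3c1, the receptor gene, had signals of 53.7 and 46.4 with dexamethasone and 25.1 and 26.5 in medium. Both dexamethasone arrays were higher than both medium arrays, and the medium arrays were above the background of 14 but dim. The means were 50.1 ± 5.16 with dexamethasone and 25.8 ± 0.990 in medium (SD, n = 2 each). The log2 difference was 0.93 ± 0.17 (SE), a 1.90-fold rise with a 95% interval of 1.44-fold to 2.51-fold (limma adjusted p = 0.0371). The call was lost without any 1 of the 4 arrays, with log2 differences of 0.82 to 1.03 and limma adjusted p of 0.0906 to 0.215. It was also lost without the filter on dim genes (limma adjusted p = 0.0857), without the variance trend (0.0807) and when the arrays were scaled to the hybridization controls (log2 difference 0.48, adjusted p = 0.0808). Among the 15 control probe sets for the opposite strand, the highest signal per array was 34.5 and 30.2 with dexamethasone and 34.6 and 25.9 in medium, so that 1 of the 15 exceeded Nr3c1 on the first medium array and 0 did on the other 3 arrays.

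Fkbp5 and Fkbp4 are paralogs with opposite roles in the receptor complex, and their promoters are shown here because the pair is the contrast on which the results turn. The sequences are those of RefSeq for GRCm38.p6, 5′ to 3′ on the strand of the gene, from 250 bases before to 50 after the start of the transcript. The Fkbp5 window is chr17:28486100-28486399 and the Fkbp4 window is chr6:128438607-128438906, both on the minus strand. Capitals mark matches on either strand to the motifs named after the sequences.
Fkbp5: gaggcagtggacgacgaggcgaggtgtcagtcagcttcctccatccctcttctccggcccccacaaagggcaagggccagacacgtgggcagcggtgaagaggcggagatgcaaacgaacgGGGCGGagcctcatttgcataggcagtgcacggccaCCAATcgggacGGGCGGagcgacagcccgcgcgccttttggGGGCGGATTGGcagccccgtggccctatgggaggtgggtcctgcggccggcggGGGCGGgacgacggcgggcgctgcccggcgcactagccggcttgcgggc
Fkbp4: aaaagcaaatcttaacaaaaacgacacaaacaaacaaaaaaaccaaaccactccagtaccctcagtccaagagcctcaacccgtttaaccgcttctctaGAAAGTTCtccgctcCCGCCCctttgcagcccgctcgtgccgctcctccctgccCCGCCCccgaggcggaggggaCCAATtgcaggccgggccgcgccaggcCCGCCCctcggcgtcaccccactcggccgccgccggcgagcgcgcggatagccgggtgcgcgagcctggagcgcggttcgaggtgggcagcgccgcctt
The motifs searched on both strands were the full glucocorticoid response element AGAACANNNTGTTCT, its half-site AGAACA, the heat shock element in its form of 2 units GAANNTTC and of 3 units GAANNTTCNNGAA, the CCAAT box CCAAT and the GC box GGGCGG. The half-site is contained in the full element, and the form of 2 units in that of 3. The Fkbp5 window held a CCAAT box in each orientation and 4 GC boxes, and neither form of the glucocorticoid response element nor of the heat shock element. The Fkbp4 window held 1 heat shock element of 2 units, 151 to 144 bases upstream of the start, along with 1 CCAAT box and 3 GC boxes. The reference table held 7 promoters of 5 members (Fkbp5, Fkbp4, Stip1, Ahsa1 and 3 of Tsc22d3). The half-site was found in 1 of these 7, a Tsc22d3 promoter, and in 19% of all 32851 promoters of the table. The full glucocorticoid response element was found in 0 of the 7 and in 0.00913% of all, and the heat shock element of 2 units in 1 of the 7 and in 7.86% of all. The CCAAT box was in 3 of the 7 and 37.4% of all, and the GC box in 5 of the 7 and 35.7% of all. A match describes letters in this window and does not show a site in use. The absence of a match says nothing of sites outside the window or of looser forms of the motif. The full glucocorticoid response element was so rare among all promoters that its absence from a window carries little information.

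Fkbp5 had signals of 2382 and 2152 with dexamethasone and 660 and 589.9 in medium. The lower dexamethasone array was far above the higher medium array, and the 2 arrays of a group differed by 1.11-fold with dexamethasone and 1.12-fold in medium. The log2 difference of 1.86 ± 0.08 (SE) corresponds to a 3.62-fold rise with a 95% interval of 3.15-fold to 4.18-fold (limma adjusted p = 0.000349). It was the ninth largest rise among the 5582 genes tested. Its log2 difference was 1.40 to 1.94 over 15 alternatives and passed in all 15, with limma adjusted p of up to 0.0405.

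Fkbp4 was measured by a pair of probe sets made from the same transcript accession. The brighter one, of a type that Affymetrix marks as shared by a sequence family, had signals of 439 and 426 with dexamethasone and 470.2 and 466 in medium. Both dexamethasone arrays were slightly lower, with a log2 difference of -0.11 ± 0.06 (SE) that did not pass (limma adjusted p = 0.390). The 95% interval ran from 0.829-fold to 1.03-fold. The dimmer probe set had signals of 166 and 142 with dexamethasone and 140 and 147 in medium. There the groups overlapped, and the log2 difference was 0.097 ± 0.11 (SE) in the fit over 7453 probe sets (limma adjusted p = 0.678). The sign thus differed between the probe sets of Fkbp4, and neither passed, beside 3.15% of all probe sets tested that did. With scaling to the hybridization controls Fkbp4 fell, with a log2 difference of -0.57 (limma adjusted p = 0.0100), beside 44.2% of all genes that fell with that scaling. That p treats an error shared by all genes of an array as separate for each gene, so that this call is description only.

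**Figure D2:**
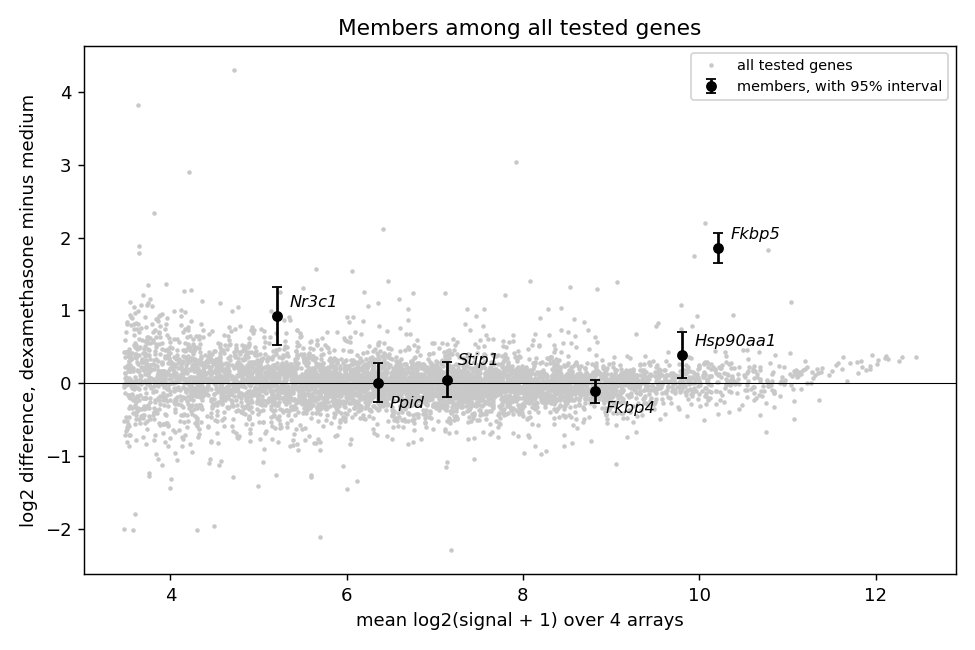
Log2 difference, dexamethasone minus medium, against the mean log2(signal + 1) over the 4 arrays, for all 5582 tested genes (grey) and the 6 tested members (black, with 95% intervals from limma). Fkbp5 at 1.86 lies far above 0 with a narrow interval, Nr3c1 at 0.93 is dim with a wide interval, and Fkbp4, Stip1 and Ppid lie near 0.

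The balance of Fkbp5 to Fkbp4 was followed as the ratio of the signals within each array, which does not move with the scaling of the array. Its absolute height has no meaning across different probe sets, but its change between groups does. On the brighter Fkbp4 probe set, the log2 ratio of Fkbp5 to Fkbp4 was 2.44 and 2.33 with dexamethasone and 0.49 and 0.34 in medium. Both dexamethasone arrays lay above both medium arrays by at least 1.85 on the log2 scale. The balance was higher with dexamethasone by 1.97 on the log2 scale, or 3.92-fold. On the dimmer Fkbp4 probe set the log2 ratio was 3.83 and 3.91 with dexamethasone and 2.23 and 1.99 in medium, a difference of 1.76 or 3.39-fold. An exact two-sided permutation test over the arrays gave p = 0.33 in both cases, the smallest p that 2 arrays against 2 allow. The difference was 1.87 to 2.05 over the other pseudocounts, quantile normalization, the mean of probe sets and leaving out each array.

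Against the other members Fkbp5 was also higher with dexamethasone within arrays. The log2 ratio differed by 1.85 to Ppid, by 1.81 to Stip1, by 1.47 to Hsp90aa1 and by 0.93 to Nr3c1. In each of these 4 pairs both dexamethasone arrays lay above both medium arrays, with a gap of at least 0.78, and the exact two-sided permutation p was again 0.33. Relative to the brighter Fkbp4 probe set, Nr3c1 was at -3.01 and -3.17 with dexamethasone and at -4.17 and -4.09 in medium, a difference of 1.04. Relative to Hsp90aa1 the difference of Nr3c1 was 0.54, with a gap of 0.14 between the groups. The Nr3c1 ratio to Hsp90aa1 was thus the pair nearest to overlap.

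**Figure D3:**
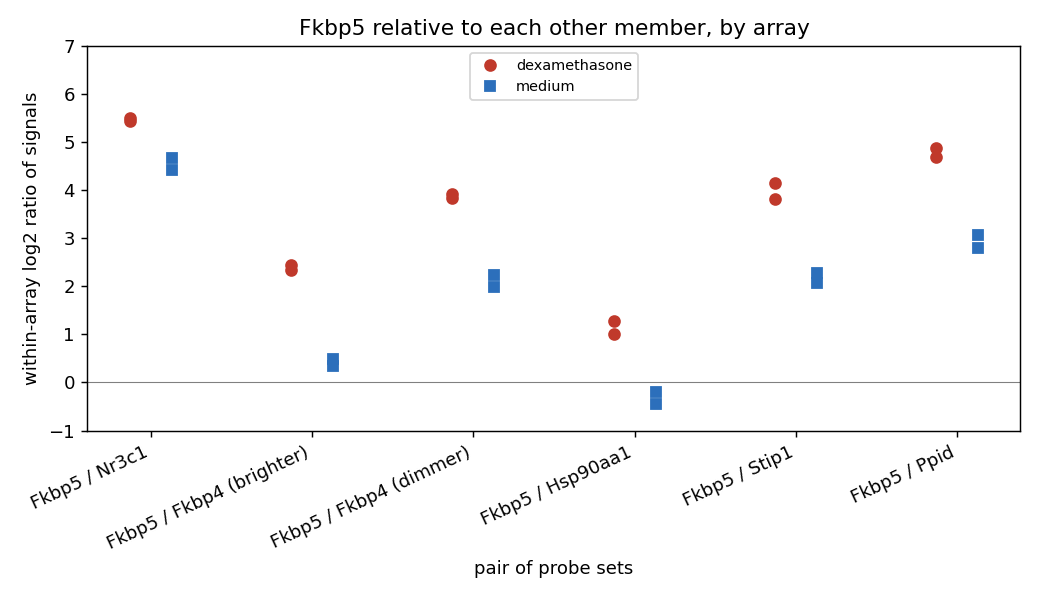
Log2 ratio of the Fkbp5 signal to that of each other member above background, within each array, for the 2 dexamethasone arrays (circles, left in each pair) and the 2 medium arrays (squares). In every pair both dexamethasone arrays lie above both medium arrays, by 1.97 on average for the brighter Fkbp4 probe set and by 0.93 for Nr3c1. Heights are not comparable between pairs.

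Hsp90aa1, the stress-inducible cytosolic Hsp90, had signals of 981 and 1062 with dexamethasone and 897 and 680.2 in medium. The groups did not overlap, but the medium arrays differed from each other by 1.32-fold, about as much as the groups did. Dexamethasone minus medium came to 0.39 ± 0.13 (SE) on the log2 scale, with a 95% interval of 1.05-fold to 1.63-fold before adjustment, and did not pass (limma adjusted p = 0.174). An unadjusted p under 0.05 was reached by 19.9% of all genes tested. It was 0.19 to 0.58 when 1 array was left out, and scaling to the hybridization controls gave -0.071. The other Hsp90aa1 probe set, of a type marked as incomplete, had signals of 1.3 and 3.5 with dexamethasone and 1.5 and 1.6 in medium, all at background, and gives no level.

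Stip1, the adaptor between Hsp70 and Hsp90, had signals of 134 and 152 with dexamethasone and 135 and 141 in medium. The dexamethasone arrays enclosed the medium arrays. Its log2 difference was 0.049 ± 0.10 (SE), and the 95% interval of 0.874-fold to 1.22-fold leaves room for a modest change in either direction (limma adjusted p = 0.835).

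Ppid, the cyclophilin that takes the same place in the receptor complex as the FKBP proteins, had signals of 80.5 and 82.1 with dexamethasone and 78 and 84 in medium. The dexamethasone arrays lay between the medium arrays. Its log2 difference was 0.0062 ± 0.11 (SE), with a 95% interval of 0.836-fold to 1.21-fold (limma adjusted p = 0.983).

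Tsc22d3, the gene of the leucine zipper protein GILZ, is a textbook target of the receptor in thymocytes. Its only probe set had signals of 4.5 and 3.7 with dexamethasone and 3.5 and 2.6 in medium. All 4 values were under the background of 14, so that the gene was not tested and no fold is given. The probe set gives no level of the transcript in either group.

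**Figure D4:**
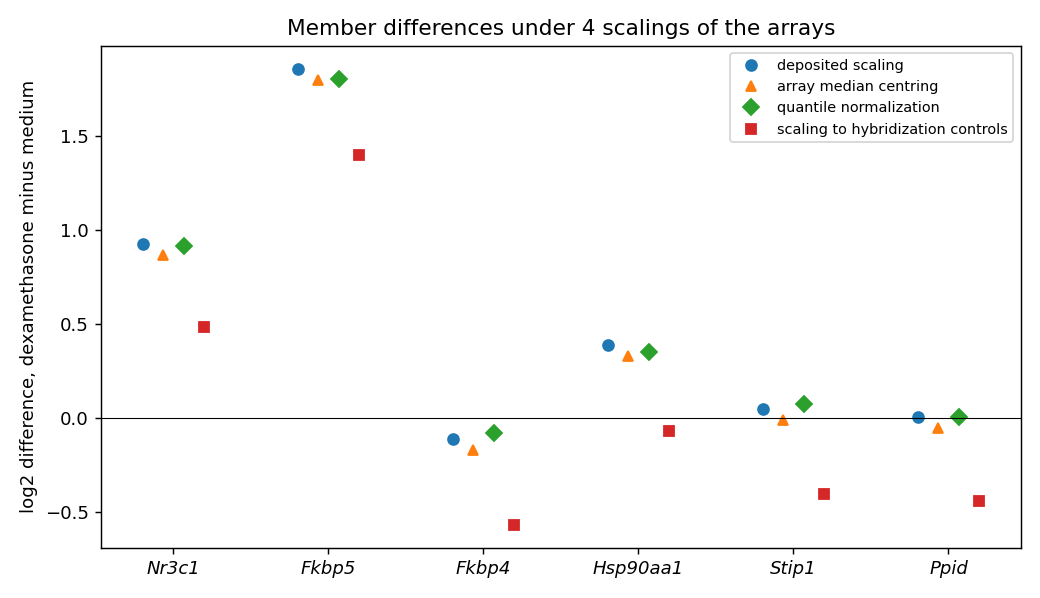
Log2 difference, dexamethasone minus medium, of the 6 tested members under the deposited scaling, array median centring, quantile normalization and scaling to the hybridization controls. Fkbp5 stays between 1.40 and 1.86 and Nr3c1 between 0.48 and 0.93, while scaling to the hybridization controls puts Hsp90aa1 at -0.071, Stip1 at -0.41, Ppid at -0.45 and Fkbp4 at -0.57.

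The 6 lists of genes around the receptor were described by their counts beside all genes tested, of which 1.88% rose and 2.02% fell, or 0.77% and 44.2% on arrays scaled to the hybridization controls. In the Hsp90 and Hsp70 folding machinery 27 of 35 listed genes were tested, 0 rose and 0 fell, with a median log2 difference of -0.0065. Scaled to the hybridization controls, 0 of the 27 rose and 14 fell. At the edges of this list, Hspa5, the Hsp70 of the endoplasmic reticulum, had a log2 difference of 0.42 ± 0.09 (SE, limma adjusted p = 0.0554), and Hsf2, a heat shock transcription factor, was at background on all arrays. Named after their values were seen, the endoplasmic Hsp90 paralog Hsp90b1 was at 0.24 ± 0.07, the constitutive Hsp70 gene Hspa8 at 0.25 ± 0.07 and Ppp5c, a phosphatase that shares the tetratricopeptide docking of FKBP51, at -0.34 ± 0.13, and none of the 3 passed.

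Among the other FKBP and cyclophilin immunophilins 12 of 23 were tested, 1 fell and 0 rose, with a median log2 difference of -0.11. Scaled to the hybridization controls, 0 of the 12 rose and 6 fell. The gene that fell on the deposited scale was Fkbp1a, which encodes FKBP12, the small immunophilin that binds FK506 and rapamycin. Its signals were 332 and 322 with dexamethasone and 456 and 467 in medium, without overlap. The log2 difference was -0.50 ± 0.07 (SE, limma adjusted p = 0.0169), opposite in sign to that of Fkbp5. The call was lost without any 1 of the 4 arrays (limma adjusted p of 0.0746 to 0.140) and without the variance trend (0.131). Ppig, a nuclear cyclophilin, had signals of 17.9 and 16.7 with dexamethasone and 13.1 and 12.3 in medium and did not pass, and Fkbp11 was at background on all arrays.

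Of the receptor coregulators 24 of 32 were tested, 1 rose and 1 fell, with a median log2 difference of -0.08. Scaled to the hybridization controls, 0 of the 24 rose and 16 fell. Nrip1, a corepressor of nuclear receptors also called RIP140, had signals of 347 and 312 with dexamethasone and 229 on both medium arrays, and its log2 difference was 0.52 ± 0.08 (SE, limma adjusted p = 0.0262). This became 0.07 on arrays scaled to the hybridization controls, where it did not pass, and the call was also lost without any 1 array (limma adjusted p of 0.0602 to 0.182) and without the variance trend (0.139). Hdac1, a histone deacetylase, had signals of 310 and 321 with dexamethasone and 431 and 421 in medium, and its log2 difference was -0.43 ± 0.07 (SE, limma adjusted p = 0.0262). This call was lost without any 1 array (limma adjusted p of 0.0795 to 0.192) and without the variance trend (0.148). The coactivator gene Ncoa2 was dim and did not pass, with signals of 22 and 25.6 with dexamethasone and 16.3 and 14.2 in medium. Med14, a subunit of the Mediator complex, was at background on all arrays.

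Of the other steroid and nuclear receptors and enzymes of steroid metabolism, 8 of 25 were tested, and 0 rose and 0 fell, with a median log2 difference of -0.25. Scaled to the hybridization controls, 0 of the 8 rose and 5 fell. Rara, a retinoic acid receptor gene, had signals of 14.4 and 15.3 with dexamethasone and 29.2 and 38.3 in medium, with a log2 difference of -1.12 ± 0.23 (SE, limma adjusted p = 0.0511). Hsd11b2, which inactivates glucocorticoids, was at background on all arrays. In the family of Tsc22d3, Tsc22d4 was at 770 and 774 with dexamethasone and 1042 and 937 in medium, a log2 difference of -0.36 ± 0.07 that did not pass (limma adjusted p = 0.0549). Tsc22d1 was at 24.5 and 26.5 with dexamethasone and 23.1 and 29.4 in medium, with overlapping groups. Scaled to the hybridization controls, 1 of these 2 fell.

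Of the known receptor target genes outside the members, 22 of 29 were tested, 6 rose and 3 fell, with a median log2 difference of 0.22. This list was made with earlier results of these arrays known, so that its direction is no independent evidence. Zfp36l2, which promotes decay of mRNAs, Ddit4, an inhibitor of mTORC1, Il7r, the interleukin-7 receptor alpha chain, and Bcl2l11, which encodes the death promoter Bim, rose with log2 differences of 1.84, 1.75, 1.40 and 1.39. Txnip, an inhibitor of thioredoxin, and Tnfaip3, an inhibitor of NF-kappaB, rose with 1.08 and 1.03. The dimmer Txnip probe set had signals of 36.2 and 42 with dexamethasone and 43.1 and 35.3 in medium. Its groups overlapped and it did not pass (limma adjusted p = 0.999), so that the probe sets of Txnip disagree. Those of Bcl2l11 disagree in part. A dimmer Bcl2l11 probe set had 41.8 and 35.2 with dexamethasone and 27.8 and 28.1 in medium. Its log2 difference of 0.44 did not pass (limma adjusted p = 0.247). Another had 31.2 and 29.2 with dexamethasone and 10.5 and 13 in medium, and passed close to the threshold (limma adjusted p = 0.0402). Both medium values of that probe set are under the background, so that its rise is known only as a bound. Zfp36, which also promotes mRNA decay, and Socs1, an inhibitor of cytokine signalling, fell with -0.83 and -0.67. Irs2, an adaptor of the insulin receptor, was at background with dexamethasone and at least 1.55-fold lower if 14 is taken as the background. Its medium signals of 20.1 and 23.3 lay under the highest opposite-strand control signals of those arrays, 34.6 and 25.9. This bound is therefore uncertain. Irs2 passed the filter on dim genes only through its medium arrays, so that a difference had to show, and it is no support for a fall of the list. Irs2 was not called without either dexamethasone array (limma adjusted p of 0.0713 and 0.103) or without the filter (0.0758), and without either medium array it was too dim to be tested. Zfp36 lost its call without any 1 of the 4 arrays (limma adjusted p of 0.0541 to 0.111), and Socs1 passed in 1 of the 4 fits that leave out an array (0.0411 to 0.113). Among the rises, Zfp36l2, Ddit4, Bcl2l11 and Txnip passed in all 4 such fits, Il7r in 3, lost without the first dexamethasone array (limma adjusted p = 0.0647), and Tnfaip3 in 1. Without the variance trend Zfp36l2, Ddit4 and Bcl2l11 passed and the other 6 did not. Il7r is also on the list of mature single-positive thymocyte markers, and 0 of the other 3 tested markers on that list passed. Zbtb16 and Anxa1 were at background on all arrays. The other Zbtb16 probe set had 12.9 and 11.2 with dexamethasone and 0.7 and 0.3 in medium. These values are also under the background, and the probe set was not tested. Scaled to the hybridization controls, the list held 6 rises and 5 falls, beside the 0.77% and 44.2% of all genes.

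**Figure D5:**
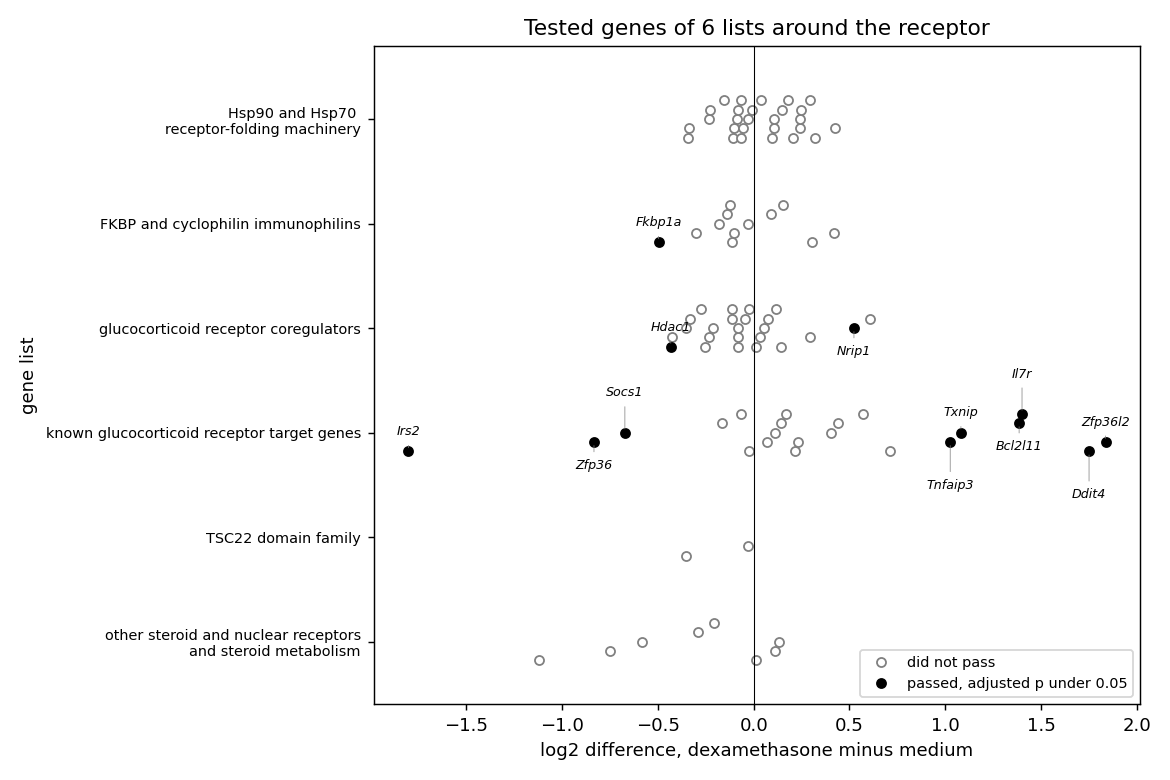
Log2 difference, dexamethasone minus medium, of each tested gene in the 6 lists, with genes that passed the test filled and named. The folding machinery holds 0 filled points among 27 genes, the immunophilins hold Fkbp1a at -0.50, and the known target genes hold 6 rises and 3 falls.

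The genes whose pattern over the 4 arrays was most like that of Fkbp5 were sought by the Euclidean distance between log2 values centred on each gene's mean. The nearest 5 were Zfp36l2 at a distance of 0.21, Ddit4 at 0.22, Ppp1r21 at 0.35, Trgv1 at 0.40 and Bcl2l11 at 0.50. Zfp36l2 had signals of 3345 and 3277 with dexamethasone and 890.1 and 963 in medium. Those nearest to Nr3c1 were Copz2 at 0.08, Zfp239 at 0.09, Ndrg3 at 0.11, C1d at 0.12 and Xrcc6 at 0.14. Of these, Copz2 and Zfp239 were at background in medium. Xrcc6, which encodes the DNA repair protein Ku70, had signals of 1369 and 1186 with dexamethasone and 709 and 769 in medium, a log2 difference of 0.79 ± 0.09 (SE, limma adjusted p = 0.00831). With 4 arrays this likeness is mostly the size of the difference between the groups.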

How the data were processed

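The deposited values are intensities, that is MAS5 signals as named by the submitters' processing notes, in which neither version nor settings appear. A 2% trimmed mean near 100.1 on every array shows a common global scaling. Detection calls were not part of the values used. Of 12488 probe sets 66 were controls, and 0 columns belonged to other samples. Gene names came from the platform annotation, and 10817 of 10833 single-gene probe sets had a gene ID known to the RefSeq gene table. A gene's brightest probe set stood for it, and features whose mean log2(signal + 1) did not exceed the 40th percentile of all probe sets were dropped. Dexamethasone was compared with medium over all 4 arrays with lmFit and eBayes with a variance trend (limma 3.58.1, R 4.3.3), in two-sided tests adjusted by Benjamini-Hochberg over 5582 genes or, for single probe sets, over 7453 probe sets. The fit was run on data simulated from its own means and variances, with independent errors. This checks the computation and not whether the model holds for these arrays. The number of arrays limits the precision. A value at or under the background of 14 on both arrays of a group gives a bound only, computed against 14.

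The members, lists and tests were chosen with earlier results of these data known. Named genes were every member, in each pathway list those that passed and the 2 measured genes with the largest absolute difference among the rest, and the 5 tested genes nearest to Fkbp5 and to Nr3c1. Hsp90b1, Hspa8, Ppp5c and the cell type markers fall outside this rule and were named after their values were seen. The alternatives were 3 other scalings, pseudocounts of 0.5, 4 and 16, no filter or the 60th percentile, no variance trend, a block for the replicate number, averaging over the probe sets of a gene and leaving out each array.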

Additional observations from a re-analysis of the deposited data

How the results depend on the processing

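Fkbp5 rose in all 15 alternatives and Nr3c1 was higher in all 15, but Nr3c1 passed in 7, and the 60th percentile filter left it untested. The count of all genes that changed was 218, against 2513 with scaling to the hybridization controls, 353 with the replicate block, 116 without the filter, 19 without the variance trend and 33 to 66 with 1 array left out. The members that changed numbered 2, against 1 without the filter, 1 with the 60th percentile filter, 1 without the variance trend and 1 with any array left out (1 to 1), and the same counts held for member probe sets. The genes of the 6 lists that changed numbered 12, against 53 with scaling to the hybridization controls, 3 without the variance trend and 4 to 6 with 1 array left out. Of the 5 list genes that fell, 0 did so without the variance trend, without the first dexamethasone array or without either medium array, and 1 did without the second dexamethasone array. The Fkbp5 to Fkbp4 balance was 1.97, against 1.87 with the mean of probe sets and 1.90 to 2.05 with 1 array left out. The sign turned for members that did not pass: with array median centring Stip1 was at -0.011 and Ppid at -0.054, with scaling to the hybridization controls Hsp90aa1 was at -0.071, Stip1 at -0.41 and Ppid at -0.45, without the second dexamethasone array Stip1 was at -0.044 and Ppid at -0.0079, and without the first medium array Ppid was at -0.047. With 1 array left out Stip1 ranged from -0.044 to 0.14 and Ppid from -0.047 to 0.059. Leaving out an array leaves fewer samples by construction, and the cause was not tested for the other settings. With scaling to the hybridization controls 2 members also passed, but Fkbp5 rose, Fkbp4 fell and Nr3c1 did not pass. The p-values with that scaling treat an error shared by all genes of an array as separate for each gene. The replicate block changed no call of a member, and 2 members passed with it. The labels do not say whether samples of the same number share more than that number. The correlation of their deviations was 0.094, which cannot settle this. Nr3c1 was above background but dim in medium, and the part of this in its lost calls was not tested. Tsc22d3 lay under the background on all arrays.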
